A study of Mus musculus with 6 samples.

Results

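The genes described here are those of apolipoproteins and lipoprotein assembly, 10 genes chosen by symbol from the deposited expression tables: Apob, Apoa1, Apoa4, Apoa5, Apoc3, Apoe, Apoh, Apom, Mttp and Lipc. Rows for 9 of the 10 were found among 24927 rows, and Apoa4 is not analysed here. Transcripts of mouse liver were measured by RNA sequencing in 6 libraries. Values are FPKM, the fragments of a gene divided by its length in kilobases and by the mapped fragments of the library. The libraries were labelled Cdkl3-/- (3, called labelled knockout below) and wild type (3, called labelled wild type), and all 6 were labelled as liver of male C57BL/6 mice, 10 months old and kept on chow, the genotype being the stated difference. The series asks how losing Cdkl3, which encodes a cyclin-dependent kinase-like protein, alters liver transcripts, and its design text places the knockout in the liver. What drove the deletion, and in which cells, is not given in the sources used here. Nothing in the labels says that each library is a separate mouse, so p-values speak only of the spread among libraries. Below, livers of a label stand for the libraries so labelled, and n counts libraries.

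Lipoproteins are particles of triglyceride and cholesterol ester in a shell of phospholipid and protein, and the liver secretes them as very low density lipoprotein. The microsomal triglyceride transfer protein, whose large subunit is encoded by Mttp, loads lipid onto the nascent apolipoprotein B chain in the endoplasmic reticulum, and each particle keeps its apolipoprotein B for life. Apolipoproteins A, C and E move between particles in plasma, where they activate or inhibit lipases and bind receptors, and hepatic lipase, the product of Lipc, hydrolyses lipids of the remnants and of high density lipoprotein.

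Before the values, the labels were set against genes that bear on them. Cdkl3 had 0.0761, 0.146 and 0.195 FPKM in the libraries labelled knockout, against 0.166, 0.0883 and 0.119 FPKM in those labelled wild type, so the targeted gene was low and overlapping in the groups. All 3 libraries labelled knockout carried Y-linked transcripts, with Ddx3y at a mean of 45.0 FPKM against 0.120 FPKM in those labelled wild type. Xist, a transcript of the inactive X chromosome, averaged 0.0212 FPKM in libraries labelled knockout and 253 FPKM in libraries labelled wild type. The sex shown by these genes goes against the label male in the 3 libraries labelled wild type, and sex and labelled genotype cannot be told apart in any comparison below. The libraries held about 24530000 to 39550000 reads on genes in the group labelled knockout and 20460000 to 48610000 in the group labelled wild type. Mitochondrial transcripts took 63.17% to 70.11% of FPKM in libraries labelled knockout and 70.47% to 73.88% in libraries labelled wild type. Hepatocyte markers reached 1 FPKM in at least one library for 9 of 10 genes, and their summed level was 3783 to 5423 FPKM in libraries labelled knockout against 1469.7 to 2212 FPKM in libraries labelled wild type. Kap, a kidney transcript, stood at 5264 FPKM in knockout replicate 1 and at 4.18 and 5.72 FPKM in the other libraries labelled knockout, against at most 0.0785 FPKM in those labelled wild type.

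By mean FPKM the 9 genes fell into a pair at high levels, a pair at low levels (Apoh and Lipc), and 5 genes under 1 FPKM. Single libraries crossed these steps. Apoa5 at 2.02 FPKM in knockout replicate 1 and Apoa1 at 1.94 FPKM in knockout replicate 2 were above Lipc in every library labelled wild type. Base composition ran alongside level over the 9 genes, but not among the 5 lowest. Of these 5, Apom had the lowest GC content, 54.5%, and was listed at 0 in all 6 libraries. Coding stretches of 4 genes are shown, those of the 2 highest in mean FPKM and of the 2 highest in GC content. They are 90 bases each, lie within a single coding exon, and were chosen as the window whose GC content is nearest that of the whole transcript. Coordinates and letters are from the GRCm38 genome with the GENCODE M21 annotation, each is written 5′ to 3′ along the coding strand, and capitals mark G and C. Apob is shown from exon 5 at chr12:7983033-7983122 (plus strand) and Mttp from exon 2 at chr3:138125151-138125240 (minus strand). Apoa1 is shown from exon 4 at chr9:46229812-46229901 (plus strand) and Apoe from exon 3 at chr7:19697529-19697618 (minus strand).
Apob: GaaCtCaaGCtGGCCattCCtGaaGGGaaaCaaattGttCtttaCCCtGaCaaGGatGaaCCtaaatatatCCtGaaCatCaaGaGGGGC
Mttp: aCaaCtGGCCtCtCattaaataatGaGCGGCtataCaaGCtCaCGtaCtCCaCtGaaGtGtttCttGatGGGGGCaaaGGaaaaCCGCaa
Apoa1: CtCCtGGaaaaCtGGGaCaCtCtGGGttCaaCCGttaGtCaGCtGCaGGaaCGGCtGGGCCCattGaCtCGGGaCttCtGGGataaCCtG
Apoe: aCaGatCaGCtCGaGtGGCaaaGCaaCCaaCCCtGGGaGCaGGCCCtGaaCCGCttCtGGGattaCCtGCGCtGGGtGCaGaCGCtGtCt
The GC content of these windows is 43.3% for Apob, 45.6% for Mttp, 56.7% for Apoa1 and 60.0% for Apoe. Over the longest transcript it is 43.5%, 45.9%, 56.8% and 59.5% for the same genes in the same order. The first and second of these genes were the most abundant of the 9, and Apoa1 and Apoe, which textbooks count among the abundant apolipoprotein messages of liver, were under 2 FPKM in every library.

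Apob, the structural protein of very low density lipoprotein, had 1029, 1041 and 1101 FPKM in livers labelled knockout, against 1212, 999 and 1292 FPKM in livers labelled wild type. All 6 libraries lay within a narrow span and the groups overlapped, because wild type replicate 2 was the lowest of all. Its mean was 1057 ± 38.5 FPKM in the group labelled knockout and 1168 ± 152 FPKM in the group labelled wild type (SD, n = 3 each). The log2 difference was -0.14 (SE 0.19, 95% interval -0.57 to 0.30), with a Benjamini-Hochberg adjusted p of 0.57 from limma. Here and below, log2 differences are of FPKM + 1, labelled knockout minus labelled wild type, fitted over all 5673 genes that reached 1 FPKM in 3 or more libraries, and the scale understates changes of low genes. Apob alone took 1.39% to 1.80% of all reads on genes. Among rows outside the mitochondrial genome it ranked 17, 16 and 16 in the libraries labelled knockout and 12, 15 and 11 in those labelled wild type. Of the summed FPKM of the 9 genes it made up 93.3%, 91.2% and 93.8% in libraries labelled knockout, against 94.8%, 94.7% and 95.8% in libraries labelled wild type, every share being lower in the group labelled knockout. The share also depends on the other genes, and Apoh made up 1.03%, 3.06% and 1.45% of the sum in libraries labelled knockout. In libraries labelled wild type Apoh made up 0.174%, 0.0734% and 0.0682%. Apob spans chr12:7977648-8016835 on the plus strand with 13934 bases of exon.

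Mttp encodes the transfer protein without which apolipoprotein B is degraded. It had 57.2, 57.6 and 52.7 FPKM in livers labelled knockout, against 62.3, 53.4 and 54.05 FPKM in livers labelled wild type. The groups overlapped and no library stood apart. Mttp averaged 55.8 ± 2.70 FPKM in the group labelled knockout and 56.6 ± 4.96 FPKM in the group labelled wild type (SD, n = 3 each), a log2 difference of -0.02 (SE 0.15, 95% interval -0.37 to 0.34, limma adjusted p 0.94). Its sign depended on the setting and turned positive at 0.02 under quantile normalization, at 0.02 without knockout replicate 3 and at 0.05 without wild type replicate 1. The ratio of Apob to Mttp within a library, which does not depend on how libraries are scaled, was 18.0, 18.1 and 20.9 in those labelled knockout and 19.5, 18.7 and 23.9 in those labelled wild type, and these overlapped too. Mttp spans chr3:138089854-138144968 on the minus strand.

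Both of these values depend on what the libraries are scaled to. The median log2 difference over the 5673 tested genes was 0.12 as deposited, and centring each library on its median gene moved it to -0.16. Relative to that centring Apob was at -0.42 (limma adjusted p 0.093) and Mttp at -0.30 (0.13), and with mitochondrial transcripts left out of the total they were at -0.52 (0.10) and -0.40 (0.16). None passed the threshold of 0.05. Without knockout replicate 1 the log2 difference was -0.12 for Apob and -0.03 for Mttp.

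Of the 4 genes that passed the filter on low values, 2 were higher in livers labelled knockout (Apoh and Lipc) and 0 were lower. Among all 5673 tested genes 33.7% were higher and 20.4% lower, 54.1% in either direction. Groups that do not overlap were found for 2 of the 4 (Apoh and Lipc, labelled knockout above) and for 63.9% of all tested genes, with the libraries labelled knockout above in 38.0%. The 4 had a median log2 difference of 0.54, beside 0.12 over all tested genes. Apoh reached 1 FPKM in 4 libraries and Lipc in 5, and the 3 labelled knockout alone would have let them pass, so counts and median describe these 4 genes and are not set apart from that background. In bulk liver, fewer cells of a type and less RNA per cell cannot be told apart.

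**Figure D1:**
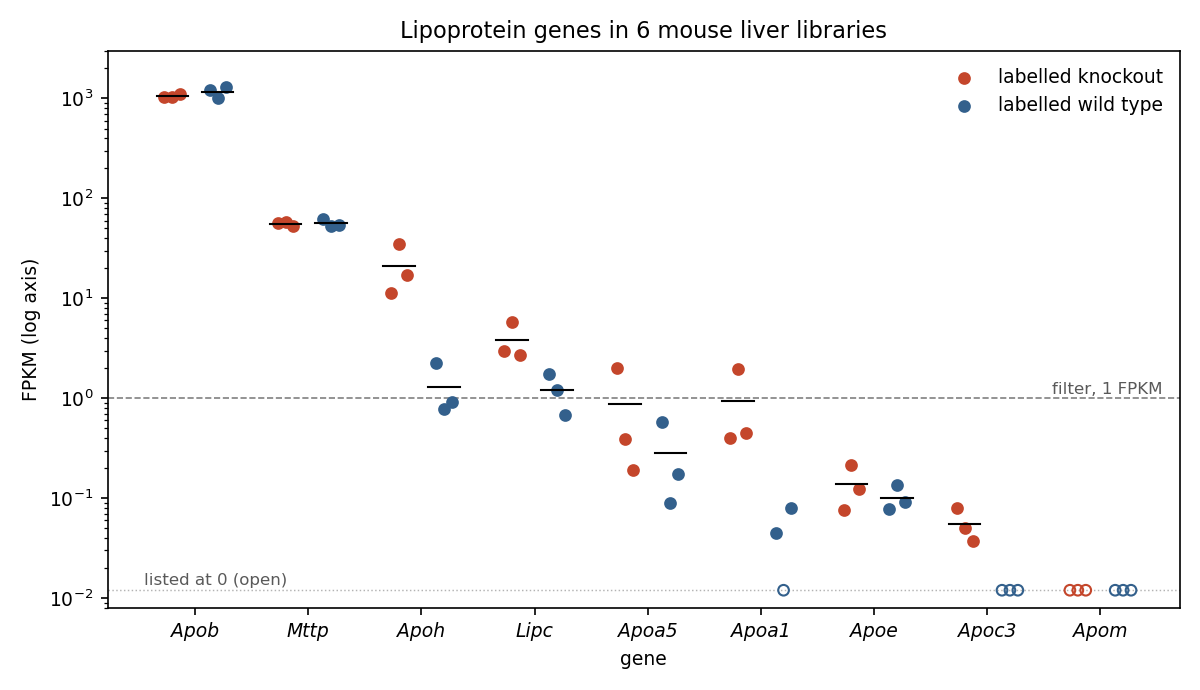
FPKM on a log axis of the 9 genes in each library, labelled knockout left of labelled wild type, with the group mean as a bar (none where a library of the group is listed at 0) and values listed at 0 as open circles at the bottom. Apob stays between 999 and 1292 FPKM and Mttp between 52.7 and 62.3 FPKM in all 6 libraries, the groups of Apoh and Lipc do not overlap, and the other 5 genes are at or below about 2 FPKM.

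Apoh encodes beta-2-glycoprotein I, a secreted phospholipid-binding protein made by hepatocytes. It had 11.4, 35.0 and 17.0 FPKM in livers labelled knockout, against 2.23, 0.774 and 0.920 FPKM in livers labelled wild type. Every library labelled knockout was above every library labelled wild type, with knockout replicate 2 the highest. The means were 21.2 ± 12.3 FPKM in the group labelled knockout and 1.31 ± 0.801 FPKM in the group labelled wild type (SD, n = 3 each), a ratio of 16.2, and limma put the log2 difference at 3.17 (SE 0.40, 95% interval 2.23 to 4.11, adjusted p 0.00065). The reads behind these values, recovered from the steps in FPKM, were 446, 2207 and 726 in the libraries labelled knockout and 128, 60 and 30 in those labelled wild type. Without knockout replicate 2 the log2 difference was 2.75, and without knockout replicate 1, which carried the kidney transcript, it was 3.52. Its rank among rows outside the mitochondrial genome was 1464, 504 and 1066 in libraries labelled knockout and 3566, 5065 and 4912 in libraries labelled wild type. Apoh spans chr11:108343354-108414396 on the plus strand.

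Lipc encodes hepatic lipase, which acts on the surface of liver cells and endothelium. It had 2.996, 5.75 and 2.70 FPKM in livers labelled knockout, against 1.77, 1.21 and 0.682 FPKM in livers labelled wild type. The groups did not overlap, though the lowest library labelled knockout was within 1 FPKM of the highest labelled wild type. Lipc averaged 3.81 ± 1.68 FPKM in the group labelled knockout and 1.22 ± 0.543 FPKM in the group labelled wild type (SD, n = 3 each), a ratio of 3.13. Its log2 difference came to 1.09 (SE 0.28, 95% interval 0.46 to 1.73, adjusted p 0.011 from limma). Its reads numbered 158, 489 and 155 in libraries labelled knockout and 137, 126 and 30 in libraries labelled wild type. With the trend on transcript GC content taken out of each library, the log2 difference was 0.60 (limma adjusted p 0.075), and with GC content and exon length taken out together it was 0.35 (adjusted p 0.21), so the call did not hold. Without knockout replicate 1 it was 1.20. Apoh kept its call after the same steps, at 2.69 and 2.38 with limma adjusted p of 0.00096 and 0.00092. Lipc spans chr9:70798128-70952226 on the minus strand.

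Apoh and Lipc varied in the same order of libraries within the group labelled knockout only in part: knockout replicate 2 was highest for each of them, and wild type replicate 1 was highest among those labelled wild type for each. In all 6 libraries Lipc stayed above Apoa5, and in 5 of 6 Apoh stayed above Lipc.

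**Figure D2:**
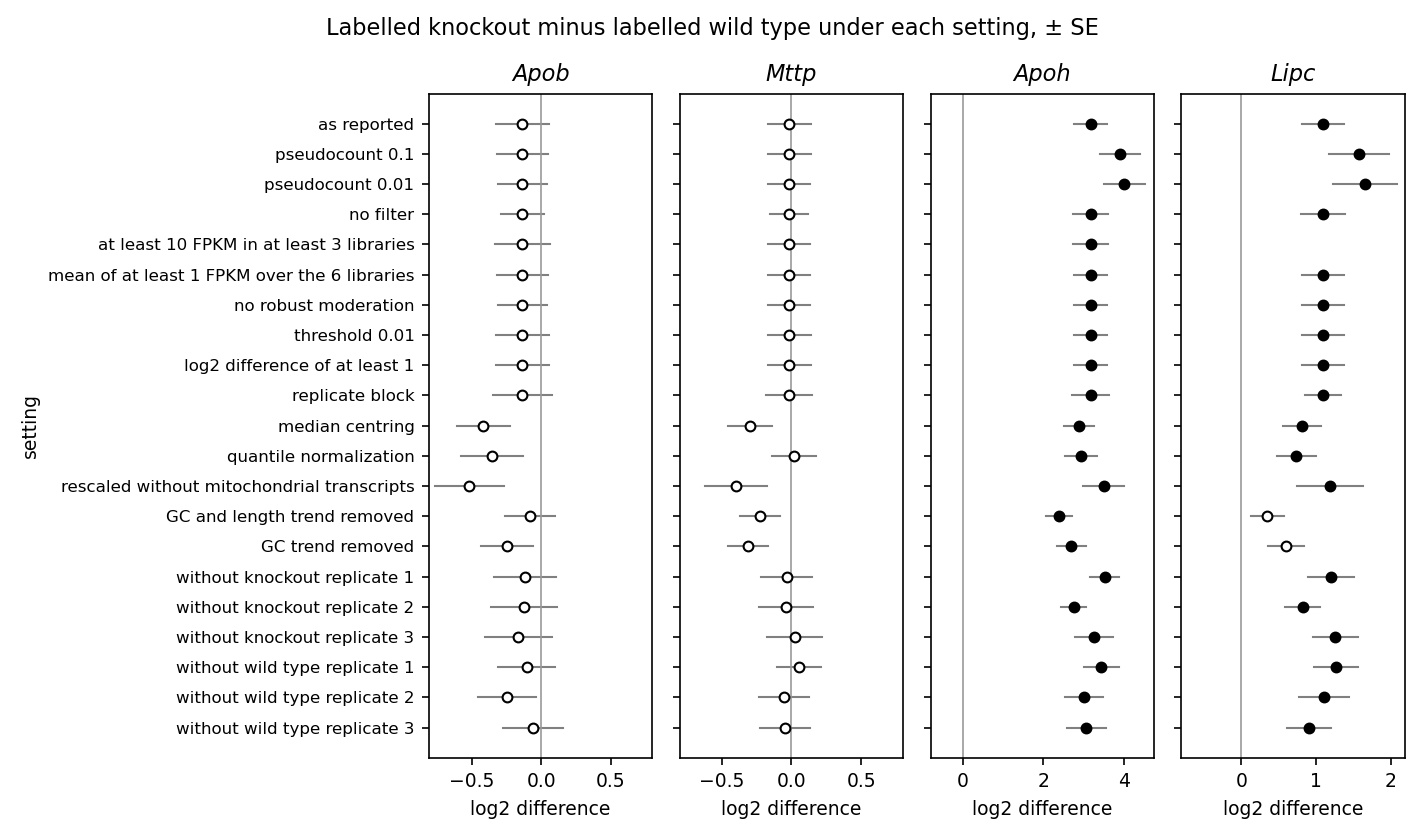
Log2 difference (labelled knockout minus labelled wild type) with its SE for Apob, Mttp, Apoh and Lipc as reported and under 20 other settings, filled where the adjusted p was under 0.05; Lipc has no value under the 10 FPKM filter. Apoh runs from 2.38 to 4.01 and is filled throughout, Lipc is open where a GC trend, alone or with length, was removed, and Apob and Mttp are open throughout.

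The promoters of Apob, the most abundant of the genes, and Lipc are shown because each holds letters that match part of a textbook element of a liver factor. Letters are the 250 bases before the start in RefSeq (GRCm38.p6), 5′ to 3′ on the strand of the gene. The RefSeq table held 9 of the 10 listed genes. Motifs searched were CAAAGGTC on both strands (part of the element read by HNF4 factors) and TATAAA on the gene's strand, chosen as known elements with the letters in view, and capitals mark the matches. Apob is chr12:7977427-7977676 (plus strand) and Lipc chr9:70934809-70935058 (minus strand). These windows follow the RefSeq starts, which differ from the GENCODE starts behind the gene spans given above, and the Lipc window lies inside its GENCODE span. The end of the Apob window also lies inside its GENCODE span, which starts at 7977648. Distances below are to the RefSeq start, and Apob matches lie nearer to the GENCODE start.
Apob: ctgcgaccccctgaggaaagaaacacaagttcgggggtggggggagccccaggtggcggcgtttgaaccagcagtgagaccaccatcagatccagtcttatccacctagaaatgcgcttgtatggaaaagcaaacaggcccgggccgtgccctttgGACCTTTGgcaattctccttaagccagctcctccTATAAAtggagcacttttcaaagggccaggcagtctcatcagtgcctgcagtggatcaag
Lipc: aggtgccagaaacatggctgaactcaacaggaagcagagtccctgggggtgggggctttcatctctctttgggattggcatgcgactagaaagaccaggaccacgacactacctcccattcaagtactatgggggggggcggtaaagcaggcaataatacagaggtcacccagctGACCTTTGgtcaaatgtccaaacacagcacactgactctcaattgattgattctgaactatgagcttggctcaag
Apob holds GACCTTTG, the reverse complement of the HNF4 motif, 94 to 87 bases before the start, and TATAAA 60 to 55 bases before it. Lipc holds GACCTTTG 75 to 68 bases before its start. Of 32851 promoters in the table, 1.01% held the HNF4 motif and 7.59% TATAAA in the same 250 bases. Apob and Lipc were chosen for their matches, and matches in the other listed genes are not given. These shares therefore allow no comparison with the listed genes as a set. A match is a description of letters, and no binding was measured. Hnf4a itself had 5.14, 9.11 and 11.4 FPKM in livers labelled knockout, against 6.09, 5.94 and 4.80 FPKM in livers labelled wild type (limma adjusted p 0.16), and the groups overlapped.

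Of the listed genes, Apoa1, Apoa5, Apoe, Apoc3 and Apom did not reach 1 FPKM in 3 libraries, so none of these was tested with the filter. Apoa1, the main protein of high density lipoprotein, had 0.396, 1.94 and 0.454 FPKM in livers labelled knockout, against 0.0449, 0 and 0.0791 FPKM in livers labelled wild type. The groups did not overlap, and 95 of the 122 reads of the group labelled knockout were in replicate 2, while the group labelled wild type had 4 reads in all. Over summed reads and depth the ratio was 35.3 (95% interval 13.4 to 132, counting error only), and without the filter the log2 difference was 0.80 (SE 0.29, limma adjusted p 0.10), which did not pass. Apoa1 lies at chr9:46228580-46230466 on the plus strand.

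Apoa5, a plasma apolipoprotein that aids the clearance of triglyceride, had 2.02, 0.391 and 0.193 FPKM in livers labelled knockout, against 0.583, 0.0897 and 0.174 FPKM in livers labelled wild type. Knockout replicate 1, the library with the kidney transcript, held 125 of the reads of its group beside 39 and 13 in the others, and the remaining values of the groups overlapped. The log2 difference without the filter was 0.44 (limma adjusted p 0.45). Apoa5 lies at chr9:46268633-46271919, on the same chromosome as Apoa1 and Apoc3.

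Apoe, the ligand through which remnants are taken up, had 0.0763, 0.213 and 0.123 FPKM in livers labelled knockout, against 0.0779, 0.135 and 0.0914 FPKM in livers labelled wild type. These are 4, 18 and 7 reads in libraries labelled knockout and 6, 14 and 4 reads in those labelled wild type. The groups overlapped, and over summed reads the ratio was 1.40 (95% interval 0.785 to 2.51, counting error only).

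Apoc3, an inhibitor of lipoprotein lipase, had 0.0804, 0.0499 and 0.0369 FPKM in livers labelled knockout and was listed at 0 in the 3 labelled wild type. That is 2, 2 and 1 reads in the libraries labelled knockout, fewer than the 3 reads that a count of 0 allows in any library, so no fold is given. The fit without the filter put Apoc3 past the threshold at a log2 difference of 0.08 (limma adjusted p 0.042), in a table of 20529 genes of which 15.4% were higher and 5.09% lower, 20.5% in either direction. Apom, a carrier of sphingosine-1-phosphate, was listed at 0 in all 6 libraries, where 3 reads would be worth 0.0610 to 0.145 FPKM. Apoe lies at chr7:19696109-19699188, Apoc3 at chr9:46232933-46235636 and Apom at chr17:35128997-35132050, all on the minus strand.

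By mean FPKM the order was Apob, Mttp, Apoh, Lipc, Apoa5, Apoa1, Apoe, Apoc3 and Apom. Apob was above Mttp and Mttp above Apoh in every library, with no overlap. From Apoh down, each gene overlapped the next in the order.

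That order ran alongside base composition and length. Apob and Mttp, with transcripts of 43.5% and 45.9% GC, were at the top, Apoh and Lipc, with 48.5% and 48.8%, were in the middle, and the 5 genes at the bottom had from 54.5% (Apom) to 59.5% (Apoe). Spearman's rho of mean FPKM with GC content was -0.73 over the 9 genes and -0.50 over 14228 protein-coding genes, and with exon length it was 0.85 and 0.16, all within the same 6 libraries and given as descriptions across genes, which are not independent. Of protein-coding genes with 42% to 46% GC, the range of Apob and Mttp, 57.3% passed the filter on low values. The share was 41.0% at 46% to 50% GC, the range of Apoh and Lipc, 6.44% at 54% to 58% GC, the range of Apoa1, Apoa5, Apoc3 and Apom, and 2.28% at 58% GC and above, where Apoe lies. The part of base composition in the low values was not tested.

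**Figure D3:**
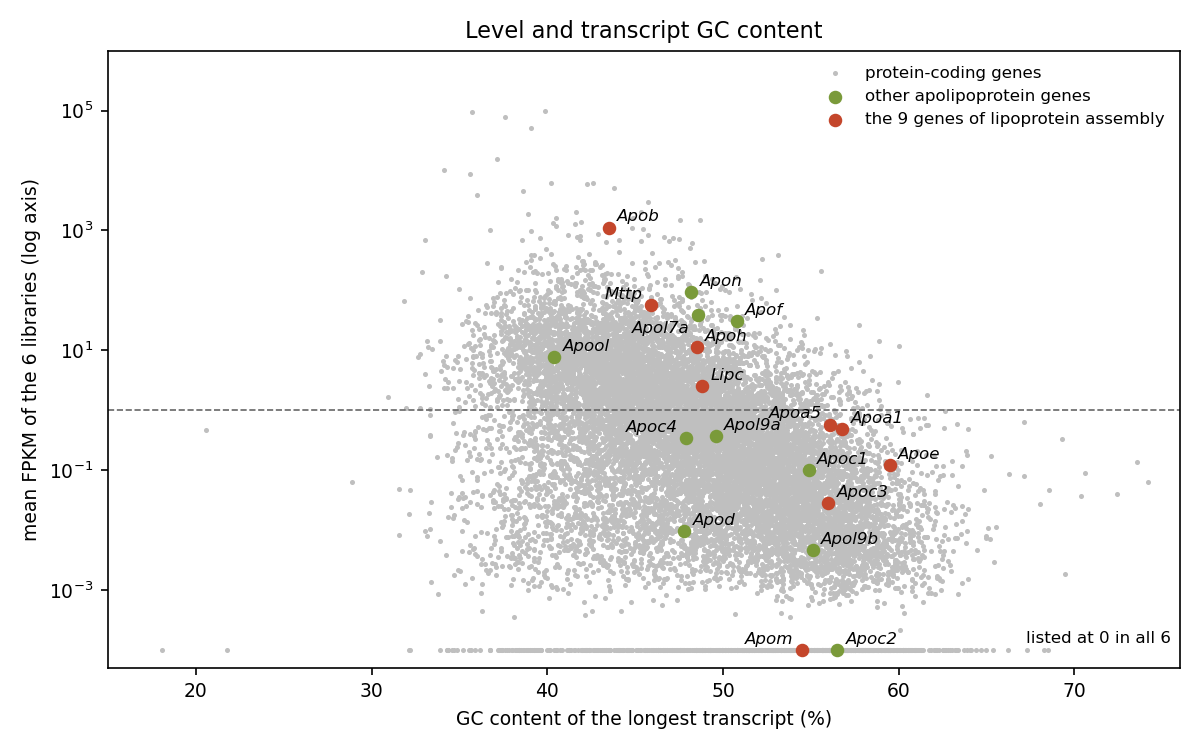
Mean FPKM of the 6 libraries on a log axis against the GC content of the longest transcript, for 14228 protein-coding genes (grey), other apolipoprotein genes (green) and the 9 genes (red); the dashed line is 1 FPKM and genes listed at 0 in all 6 are drawn at the bottom. Apob at 43.5% GC is the highest of the coloured genes, and all coloured genes above 54% GC lie below 1 FPKM.

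The differences between the groups ran with GC content too. Of the tested genes with 42% to 46% GC, 30.6% were higher and 18.0% lower in livers labelled knockout, and of those with 46% to 50% GC, 46.7% were higher and 12.7% lower. Over 5539 tested genes the rank correlation (rho) between GC content and the log2 difference was 0.36. Apoh and Lipc lie in the second of these ranges, and Apob and Mttp in the first. Across the 4 tested genes the order of GC content is Apob, Mttp, Apoh and Lipc, and the larger of the differences belonged to Apoh.

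Genes with the most similar course over the 6 libraries were picked by Pearson's r of log2(FPKM + 1) among 5067 tested genes. For Apob these were Metap2 (r = 0.994), Zc3h8 (0.985) and Tet2 (0.981), and for Mttp they were Zfp12 (0.967), Ap3m1 (0.966) and Resf1 (0.952). For Apoh they were Xdh (r = 0.999), Scfd1 (0.999) and Tmem62 (0.999), each at a higher mean in the group labelled knockout, such as Xdh with 2.62 FPKM against 0.286 FPKM in the group labelled wild type. They were picked for following Apoh, so this direction came with the choice. Xdh also passed the filter through the libraries labelled knockout alone. With 6 libraries and 5067 genes, such values describe likeness and carry no p.

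Of 11 other apolipoprotein genes, 10 had a usable row and 4 passed the filter, of which 1 was higher and 1 lower, with a median log2 difference of -0.10, against 33.7% higher, 20.4% lower and a median of 0.12 over all tested genes. Apof, which encodes a plasma apolipoprotein that inhibits lipid transfer in humans, had 35.9, 55.4 and 45.1 FPKM in livers labelled knockout, against 25.6, 10.8 and 8.65 FPKM in livers labelled wild type. The groups did not overlap, and the log2 difference was 1.66 (SE 0.37, limma adjusted p 0.0066). With the GC trend alone removed it was 1.06 (limma adjusted p 0.026), and with the GC and length trend removed it was 0.71 (limma adjusted p 0.079), short of the threshold. Apol7a, of the apolipoprotein L family, had 17.0, 21.9 and 17.0 FPKM in livers labelled knockout, against 61.9, 71.6 and 46.1 FPKM in livers labelled wild type. All libraries labelled knockout were below all labelled wild type, and the log2 difference was -1.62 (SE 0.21, limma adjusted p 0.00061). Apol7a has close copies in the mouse genome, and how the authors' counting split reads among them is not given.

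Apon had 60.3, 92.2 and 85.6 FPKM in livers labelled knockout, against 101.9, 114 and 113 FPKM in livers labelled wild type. Its groups did not overlap, but the log2 difference of -0.48 missed the threshold as deposited (limma adjusted p 0.074). It passed at -0.76 after median centring (limma adjusted p 0.012), at -0.87 with mitochondrial transcripts left out (0.013), at -0.94 with the GC trend removed (0.0052) and at -1.23 with the GC and length trend removed (0.0013). Without knockout replicate 1 it was -0.30 (limma adjusted p 0.21). Apool, which encodes a mitochondrial protein of the cristae despite its name, averaged 8.44 FPKM in the group labelled knockout and 6.90 FPKM in the group labelled wild type (limma adjusted p 0.29). Apoc1, Apoc4 and Apol9a stayed under 1 FPKM in every library, Apod and Apol9b were above 0 in a single library, Apoc2 was listed at 0 in all 6, and the row of Apoa2 was left out with a block of chromosome 1 symbols that do not go with their values. Apoc1 and Apoc4 had all libraries labelled knockout above all labelled wild type, and 27.7% of all 20529 rows above 0 in any library were so, 37.8% being free of overlap in either direction.

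Of 20 genes of assembly and secretion, 13 were tested, with 8 higher, 2 lower and a median log2 difference of 0.88, beside 33.7% higher, 20.4% lower and a median of 0.12 over all tested genes. Sort1, Apobec1 and Surf4 passed the filter through the libraries labelled knockout alone, so they had to differ and the count is a description. P4hb encodes protein disulfide isomerase, the small subunit of the microsomal triglyceride transfer protein. It had 38.3, 70.7 and 46.3 FPKM in livers labelled knockout, against 2.75, 1.06 and 1.21 FPKM in livers labelled wild type. The groups were far apart, at a log2 difference of 4.31 (SE 0.30, limma adjusted p 7.2e-05), while Mttp, the gene of the large subunit, was at -0.02. The ratio of means was 31.0 for P4hb, whose transcript has 53.8% GC. Of tested protein-coding genes with 50% to 54% GC, 55.3% were higher and 11.2% lower in livers labelled knockout. With 54% to 58% GC, the range of Surf4 (54.8%), 58.9% were higher and 7.09% lower.

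Surf4, a cargo receptor that carries lipoproteins out of the endoplasmic reticulum, averaged 12.4 ± 3.45 FPKM in the group labelled knockout and 0.442 ± 0.291 FPKM in the group labelled wild type (SD, n = 3 each; log2 difference 3.20, limma adjusted p 7.8e-05). Vmp1, needed for lipoprotein release from the endoplasmic reticulum membrane, averaged 38.6 ± 4.92 FPKM in the group labelled knockout and 6.80 ± 2.88 FPKM in the group labelled wild type (log2 difference 2.40, limma adjusted p 0.0003). Sar1a and Sar1b encode the closely related GTPases that start the coat of export vesicles. Sar1a had 4.85, 7.37 and 7.21 FPKM in livers labelled knockout, against 1.14, 1.08 and 1.08 FPKM in livers labelled wild type (log2 difference 1.81, limma adjusted p 0.00023). Sar1b, the form mutated in human chylomicron retention disease, went the other way, with 182, 158 and 216 FPKM in livers labelled knockout, against 284, 418 and 412 FPKM in livers labelled wild type (log2 difference -0.99, limma adjusted p 0.0069). Sar1b was the more abundant in every library. Sort1, Sar1b, the complementation factor A1cf and the editing enzyme Apobec1 fall outside the rule for named genes and were chosen after their values were seen. Apobec1, which edits Apob messages, had 2.47, 4.10 and 1.65 FPKM in livers labelled knockout, against 0.555, 0.305 and 0.199 FPKM in livers labelled wild type (log2 difference 1.42, limma adjusted p 0.0019). A1cf, its partner, had 41.5, 31.9 and 33.7 FPKM in livers labelled knockout, against 65.5, 36.9 and 84.7 FPKM in livers labelled wild type, with an overlap and a limma adjusted p of 0.07. Editing itself was not measured.

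**Figure D4:**
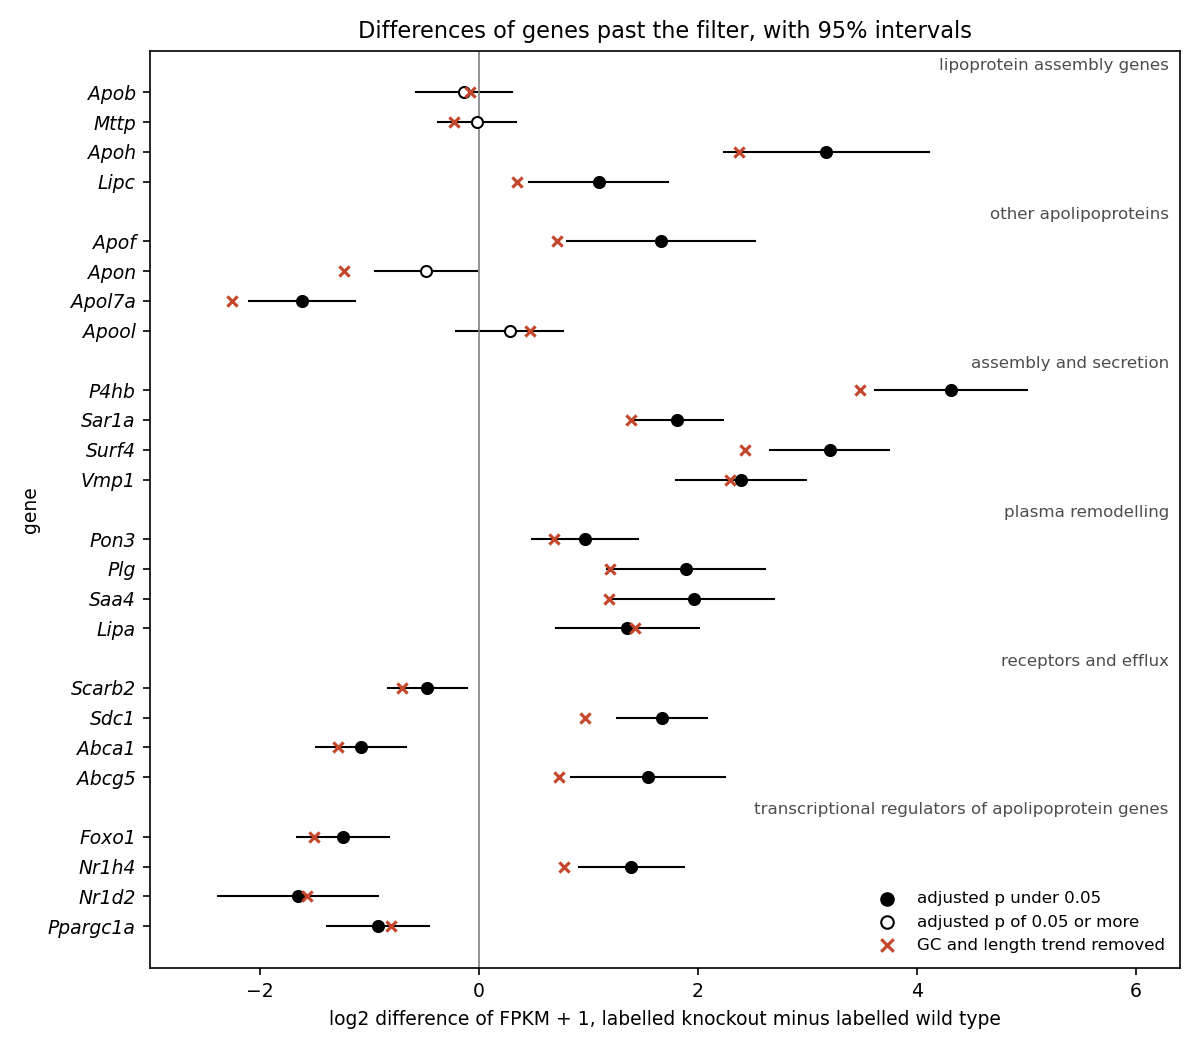
Log2 difference with its 95% interval (labelled knockout minus labelled wild type) of the named tested genes by list, filled where the limma adjusted p was under 0.05. Crosses give the value after removal of the GC content and length trend. Beyond the first lists, of lipoprotein assembly genes and other apolipoproteins, only up to 4 called genes per list are drawn. Tested genes without a call are left out there. P4hb at 4.31 is the highest value drawn and Nr1d2 at -1.66 the lowest of the points, and Apob and Mttp lie next to 0.

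Genes that act on particles in plasma were higher for 5 of the 7 tested of 16 listed, and lower for 0, with a median log2 difference of 0.97, beside 33.7% higher, 20.4% lower and a median of 0.12 over all tested genes. Plg and Saa4 passed the filter through the libraries labelled knockout alone. Plasminogen (Plg) averaged 3.33 FPKM in the group labelled knockout and 0.0737 FPKM in the group labelled wild type (log2 difference 1.89, limma adjusted p 0.0018), and Saa4, which encodes a constitutive serum amyloid A of high density lipoprotein, 3.40 FPKM and 0.0398 FPKM in the same order of groups (1.96, limma adjusted p 0.0016). Saa4 has close relatives in the genome. Lysosomal acid lipase (Lipa), which releases cholesterol from lipoproteins taken up, had 24.7, 26.4 and 22.1 FPKM in livers labelled knockout, against 14.9, 6.73 and 6.93 FPKM in livers labelled wild type (log2 difference 1.36, limma adjusted p 0.0048). Pon3, a lactonase carried on high density lipoprotein, averaged 27.1 FPKM in the group labelled knockout and 13.5 FPKM in the group labelled wild type (0.97, limma adjusted p 0.0056).

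Receptors and efflux pumps gave 2 higher and 2 lower among 8 tested of 19 listed, with a median of -0.31, against the same shares and median over all tested genes, and 4 were lower after median centring or with mitochondrial transcripts left out. Abca1, the pump that lipidates apolipoprotein A-I, had 40.2, 39.5 and 38.6 FPKM in livers labelled knockout, against 68.9, 89.9 and 97.2 FPKM in livers labelled wild type. Every library labelled knockout was lower, at a log2 difference of -1.08 (SE 0.18, limma adjusted p 0.0017). Scarb2, a lysosomal membrane protein, was lower by a smaller amount (19.1 FPKM in the group labelled knockout and 26.9 FPKM in the group labelled wild type, log2 difference -0.47, limma adjusted p 0.034), and the call ended when any of 5 of the libraries was left out. Sdc1, a heparan sulfate proteoglycan that binds remnants, averaged 2.91 FPKM in the group labelled knockout and 0.209 FPKM in the group labelled wild type (1.67, limma adjusted p 0.00029), having passed through the libraries labelled knockout alone. Abcg5, a sterol exporter into bile, averaged 11.4 FPKM in the group labelled knockout and 3.38 FPKM in the group labelled wild type (1.54, limma adjusted p 0.0037), a call kept with the GC trend alone removed (0.94, limma adjusted p 0.025) and lost with the GC and length trend removed (0.74, limma adjusted p 0.059).

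Transcription factors known to act on apolipoprotein genes were split, with 5 higher and 3 lower among 13 tested of 30 listed and a median of -0.11, beside 33.7% higher, 20.4% lower and a median of 0.12 over all tested genes. The balance turned under other scalings: median centring, quantile normalization or leaving out mitochondrial transcripts each gave 2 higher and 5 lower, and there were 1 higher and 5 lower after either removal of the GC trend. Nr1h4, the bile acid receptor FXR, had 16.3, 19.2 and 14.6 FPKM in livers labelled knockout, against 7.62, 4.64 and 5.22 FPKM in livers labelled wild type (log2 difference 1.39, limma adjusted p 0.001). Foxo1, which raises Mttp and Apoc3 transcription in mice when insulin is low, had 4.95, 3.65 and 4.87 FPKM in livers labelled knockout, against 10.5, 14.0 and 11.5 FPKM in livers labelled wild type (log2 difference -1.24, limma adjusted p 0.001). Nr1d2, a repressor of the circadian clock, averaged 50.4 ± 24.7 FPKM in the group labelled knockout and 152 ± 25.8 FPKM in the group labelled wild type (-1.66, limma adjusted p 0.0033), and the coactivator Ppargc1a 3.91 ± 0.890 FPKM and 8.25 ± 1.39 FPKM in the same order of groups (-0.92, limma adjusted p 0.006).

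Markers of cell types moved with the groups as well. The counts that follow stand beside 33.7% higher and 20.4% lower among all tested genes. The hepatocyte marker Serpina1c and the macrophage marker Lyz2 passed the filter through the libraries labelled knockout alone. The endothelial marker Cdh5 passed through those labelled wild type alone. Such genes had to differ, so the counts that hold them are descriptions. Hepatocyte markers were higher for 6 and lower for 0 of 9 tested, and Alb had 743, 1613 and 1057 FPKM in livers labelled knockout, against 425, 286 and 261 FPKM in livers labelled wild type (limma adjusted p 0.0026). Stellate cell and fibroblast markers were lower for 4 of 4 tested. Their list summed to 25.7 to 39.3 FPKM in libraries labelled knockout against 88.4 to 166 FPKM in libraries labelled wild type. Col1a1 on that list, untested and under 1 FPKM, was higher in every library labelled knockout than in any labelled wild type. Endothelial markers were lower for 4 of 5 tested. Their list summed to 8.39 to 9.33 FPKM in libraries labelled knockout against 14.3 to 17.4 FPKM in libraries labelled wild type. Among untested endothelial markers, all under 1 FPKM, Clec4g was at 0.365 to 0.709 FPKM against 0.1003 to 0.338 FPKM in the same order. Pecam1 had 0.0365 to 0.162 FPKM in libraries labelled knockout and was listed at 0 in those labelled wild type. Stab2 overlapped between the groups. Cholangiocyte markers were higher for 1 and lower for 0 of 2, with sums of 29.3 to 50.9 FPKM in libraries labelled knockout against 50.3 to 68.0 FPKM in libraries labelled wild type. No red blood cell marker was tested, and those sums were 0.803 to 1.57 FPKM in libraries labelled knockout and 0.424 to 0.585 FPKM in libraries labelled wild type. Macrophage and Kupffer cell markers gave 1 higher and 2 lower of 5 and summed to 14.8 to 61.5 FPKM in libraries labelled knockout against 22.3 to 40.4 FPKM in libraries labelled wild type, with C1qb listed at 0 in all 6. Intestine also makes Apob, Mttp and Apoa1, and of its 10 listed markers 5 had a row and 2 reached 1 FPKM in any library. Fabp2 was 27.2, 55.4 and 27.0 FPKM in libraries labelled knockout, against 6.33, 3.54 and 1.87 FPKM in libraries labelled wild type, and Mep1a was 4.96 FPKM in knockout replicate 1 and listed at 0 elsewhere, while Sis, Muc2 and Reg3g were above 0 in knockout replicate 2 alone, at no more than 0.0610 FPKM. Of kidney tubule markers 3 of 6 with a row reached 1 FPKM in any library, and the sum over the list was 5277 FPKM in knockout replicate 1, 4.31 and 5.85 FPKM in the other libraries labelled knockout, and 0.328 to 1.37 FPKM in libraries labelled wild type. Markers under 10 FPKM were named after their values were seen. The part of these markers in the values of Apoh, Lipc and the other genes was not tested.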

How the data were processed

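Each of the 6 deposited tables gives 1 FPKM value per gene, per the file headers. HISAT2 and GRCm39 are named in the submitters' processing notes; no source used here gives versions, the counting tool or the annotation. Each sample was grouped by its labelled genotype, and the header code of knockout replicate 3 differs from its title, so its label was used. In 0 of 24927 rows did identifier and symbol name the same gene. With GENCODE M21 exon lengths taken by symbol, FPKM came out as whole reads for 98.95% of 43467 low values (within 0.15 read, up to 40 reads) outside a block of chromosome 1 symbols, and for 36.06% of 3283 inside it. Symbols were therefore used, and 1787 rows of that block and 127 rows without a symbol were left out. The same steps gave the depth, about 20460000 to 48610000 reads per library. Intervals on reads, and the floor of 3 reads for a count of 0, cover counting error only.

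Log2(FPKM + 1) was fitted with limma 3.58.1 (R 4.3.3; mean-variance trend, robust moderation) on labelled genotype, over the 5673 genes reaching 1 FPKM in 3 or more libraries, with Benjamini-Hochberg adjustment over all of them and a threshold of 0.05. The fit was tested on simulated data. GC content and length, by symbol from GENCODE M21 (GRCm38), were at hand for 5539 of the tested genes. Named were the listed genes, all other apolipoproteins, up to 4 called genes with the smallest adjusted p from each further list, the 3 genes most like each of the 3 most abundant tested genes, checks of the labels, and marker genes of at least 10 FPKM; exceptions are named where they occur. The genes and lists were chosen with earlier results of these data known. Of 20 alternatives, 19 were planned and 1 (GC trend alone removed) was chosen after seeing the data. Other steps used Python 3.11.15 (matplotlib 3.10.9, scipy 1.17.1, pandas 2.3.3, numpy 2.4.6). A result on a listed regulator is not reported here.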

Additional observations from a re-analysis of the deposited data

How the results depend on the processing

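Over 20 alternatives Apob kept its direction and never passed the threshold (log2 difference -0.52 to -0.06, limma adjusted p 0.093 to 0.85), and Apoh kept its direction and its call (2.38 to 4.01, limma adjusted p 0.00044 to 0.0062). Mttp stayed uncalled in all 20 and turned positive in 3, at 0.0209 (quantile normalization), 0.0234 (without knockout replicate 3) and 0.0533 (without wild type replicate 1), the range on leaving out a library being -0.0559 to 0.0533. Lipc kept its direction in 19 (0.35 to 1.66, limma adjusted p 0.011 to 0.21), was not tested under the 10 FPKM filter, and lost its call at a threshold of 0.01 and on removal of the GC trend alone (0.60) or with length (0.35). The count of lipoprotein assembly genes higher was therefore 1 in place of 2 under those 4 settings. Without the filter it was 3, with Apoc3, which rests on 5 reads, called as well (limma adjusted p 0.042). Leaving out each library in turn gave Apoh 2.75 to 3.52 and Lipc 0.82 to 1.27, with calls throughout. Apool turned negative after median centring (-0.0013) and with mitochondrial transcripts left out of the total (-0.0579). Of 29 named genes, 20 kept direction and side of the threshold under all alternatives in which they were tested. The 29 include Xist and the Y-linked genes, whose large differences run with sex, and genes named for the smallest adjusted p. The count is therefore a description and no measure of stability over the tested genes.

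Over all tested genes, 3171 were higher without the filter, and 468 were higher and 559 lower under the 10 FPKM filter. At a log2 difference of at least 1 there were 1102 higher and 415 lower, and at a threshold of 0.01 there were 656 lower. The split of higher to lower depends on the scaling: 1911 to 1157 as deposited, 1443 to 1891 after median centring, 1427 to 1761 after quantile normalization and 1315 to 1785 with mitochondrial transcripts left out. With the trend on GC content and length removed it was 1488 to 1369.

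Other apolipoproteins had 0 higher without the GC and length trend, and 2 lower after median centring, without mitochondrial transcripts and after either trend removal. Assembly and secretion had 2 higher under the 10 FPKM filter, and its 2 lower became 1 without the filter, at the 0.01 threshold and after quantile normalization, 0 at a log2 difference of at least 1, and 4 after removal of the GC and length trend; leaving out a library gave 1 to 2. Plasma remodelling had 3 higher under the 10 FPKM filter, at a log2 difference of at least 1 and without mitochondrial transcripts. Receptors and efflux had 5 higher without the filter, 0 under the 10 FPKM filter and 1 after removal of the GC and length trend, with 1 lower without the filter, at the 0.01 threshold or at a log2 difference of at least 1, and 4 lower after median centring or without mitochondrial transcripts; leaving out a library gave 1 to 3 lower. The regulators had 8 higher without the filter, 1 under the 10 FPKM filter, at a log2 difference of at least 1 and after either trend removal, and 2 at the 0.01 threshold and under each of the 3 scalings, with 5 lower under the 3 scalings and either trend removal; leaving out a library gave 2 to 5 higher. The causes were not tested.

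Replicate numbers were tried as a block. Libraries of the same number in both groups deviated together with r of -0.05, -0.10 and 0.18, so the numbers were not taken to pair the libraries. With the replicate block 1740 genes were higher and 1031 lower, Apoh (limma adjusted p 0.0057) and Lipc (0.018) kept their calls, assembly and secretion had 1 lower, and Scarb2 lost its call (-0.47, limma adjusted p 0.064).

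Depth limits the 5 genes under the filter: a library needs 3 reads to tell a transcript from 0, worth up to 0.145 FPKM for Apom, and Apoc3 rests on 5 reads. Groups of 3 give wide intervals, such as -0.57 to 0.30 for Apob. Sex as shown by Xist and Y-linked genes, labelled genotype, GC content of the transcripts and cell type markers all run with the groups.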
